A study of Mus musculus with 4 samples.

Results

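Cib3, Tff3, Gipc2, Epdr1, Tinag and Uap1l1 are 6 of the 23462 genes that could be named on the liver arrays of mice lacking Mboat7 in hepatocytes, and 8 of the 56605 probes report on them. They were chosen by their measured difference between knockout and control liver on these same arrays, so their genotype differences are a description and not a finding. Cib3, Gipc2, Epdr1, Tinag and Tff3 had the 5 largest genotype differences on high-fat diet (HFD) of 14677 genes that both HFD arrays measured. At the edge of that ranking, Tff3 stood 5th with a log2 difference of 2.93 and Tenm4 stood 6th with 2.63. Uap1l1 stood at rank 126 on HFD and is 1 of 9 genes that were at least 2-fold higher in the knockout on both diets and measured on all 4 arrays.

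Total RNA of whole liver was hybridised to 4 one-colour arrays, 1 for each combination of genotype and diet. All mice were male, of C57BL/6 background and 24 weeks old, and had eaten chow (CE2) or HFD for 18 weeks from 6 weeks of age. Control mice (F/F) carried floxed alleles of Mboat7, also named Lpiat1, without Cre. Knockout mice (LKO) carried the same floxed alleles with Alb-Cre, a recombinase driven by the albumin promoter that acts in hepatocytes. Whether Mboat7 stayed intact in other liver cells was not examined. The sources used here do not say if single mice or pools were hybridised. With 1 array per condition no difference has a replicate check, none was tested and no p-value is given. The arrays resembled each other, with 53.0 to 57.0% of spots well above background, and the 9 hepatocyte markers (albumin, transthyretin and others) were well above background on all 4 of them.

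Mboat7 encodes an acyltransferase of the endoplasmic reticulum that attaches arachidonic acid to lysophosphatidylinositol and so shapes the fatty acids of phosphatidylinositol, a membrane and signalling lipid. The 6 genes belong to different protein families. Cib3 belongs to a family of small calcium-binding proteins that bind integrin tails and other partners, and Tff3 is a trefoil factor, a small peptide secreted with mucus by goblet cells and other epithelia. Gipc2 is an adaptor with a PDZ domain, Epdr1 is an ependymin-related glycoprotein that is secreted or held in lysosomes, Tinag is a basement membrane glycoprotein known from kidney tubules, and Uap1l1 is a relative of the enzyme that completes the synthesis of UDP-N-acetylglucosamine.

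The probe for Mboat7 gave signals of 1102 in F/F on chow, 861 in LKO on chow, 1181 in F/F on HFD and 1100 in LKO on HFD. A signal is the background-subtracted intensity of a probe in arbitrary units, and all differences are in log2 of the signal relative to the 75th percentile over the spots of its own array. On that scale Mboat7 was lower in LKO by 0.30 on chow (log2 difference -0.30) and by 0.27 on HFD (-0.27). Both differences go the way the labels say but are small, and the position of the probe relative to the floxed exons is not given in the files, so that it checks the labels only weakly.

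For Cib3, Epdr1 and Tinag the RefSeq promoter table (build GRCm38.p6) holds a sequence around a listed transcription start. Each runs from 250 bases before that start to 50 bases after it. The listed start was not checked against the transcript that a probe reports, so a window need not be the promoter of that transcript. The sequences are shown because the 3 genes were among the 4 with the largest genotype difference on HFD. They let the listed start regions be set side by side. Capitals mark matches to any of 7 motifs searched on both strands, namely the TATA box with letters TATAAA, the CCAAT box with letters CCAAT, the E-box with letters CACGTG, the AP-1 site with letters TGANTCA, the nuclear receptor half-site with letters AGGTCA, the STAT site with letters TTCNNNGAA and the C/EBP site with letters TTGCNNAA. All 3 genes lie on the minus strand.
Cib3, chr8:72212788-72213087: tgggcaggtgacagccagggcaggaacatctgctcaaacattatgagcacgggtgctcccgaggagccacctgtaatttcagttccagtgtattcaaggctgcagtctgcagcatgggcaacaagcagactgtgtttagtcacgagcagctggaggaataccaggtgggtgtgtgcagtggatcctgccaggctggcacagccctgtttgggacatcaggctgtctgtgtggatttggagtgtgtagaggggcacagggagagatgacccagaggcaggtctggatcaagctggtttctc
Epdr1, chr13:19619781-19620080: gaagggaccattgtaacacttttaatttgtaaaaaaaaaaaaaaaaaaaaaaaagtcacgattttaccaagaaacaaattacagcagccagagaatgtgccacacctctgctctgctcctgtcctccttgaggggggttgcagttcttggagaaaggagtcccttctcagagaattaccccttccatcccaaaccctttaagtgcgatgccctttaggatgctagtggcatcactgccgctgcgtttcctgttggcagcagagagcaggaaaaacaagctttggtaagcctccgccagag
Tinag, chr9:77045732-77046031: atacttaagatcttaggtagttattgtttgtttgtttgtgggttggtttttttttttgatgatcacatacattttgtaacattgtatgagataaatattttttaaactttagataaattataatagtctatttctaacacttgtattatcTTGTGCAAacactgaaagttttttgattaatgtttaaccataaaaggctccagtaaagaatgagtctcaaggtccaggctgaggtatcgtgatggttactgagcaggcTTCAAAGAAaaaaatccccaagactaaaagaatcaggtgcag
The Cib3 and Epdr1 windows held none of the 7 motifs. The Tinag window held a STAT site match 8 bases after the start and a C/EBP site match on the opposite strand 100 bases before it (position -100). Of 32851 mouse promoters of this length, 8.30% held the first of these motifs and 10.8% the second, and the remaining motifs were found in 13.6% (TATA box), 37.4% (CCAAT box), 7.15% (E-box), 7.81% (AP-1 site) and 16.3% (nuclear receptor half-site). The GC content was 55.7% for Cib3, 45.7% for Epdr1 and 31.0% for Tinag, against a median of 52.7% over all promoters, and the Tinag window lay below the 5th percentile of 36.3%. The windows thus shared none of the motifs searched and spanned a wide range of base composition. A match is a description of letters and says nothing about binding.

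**Figure D1:**
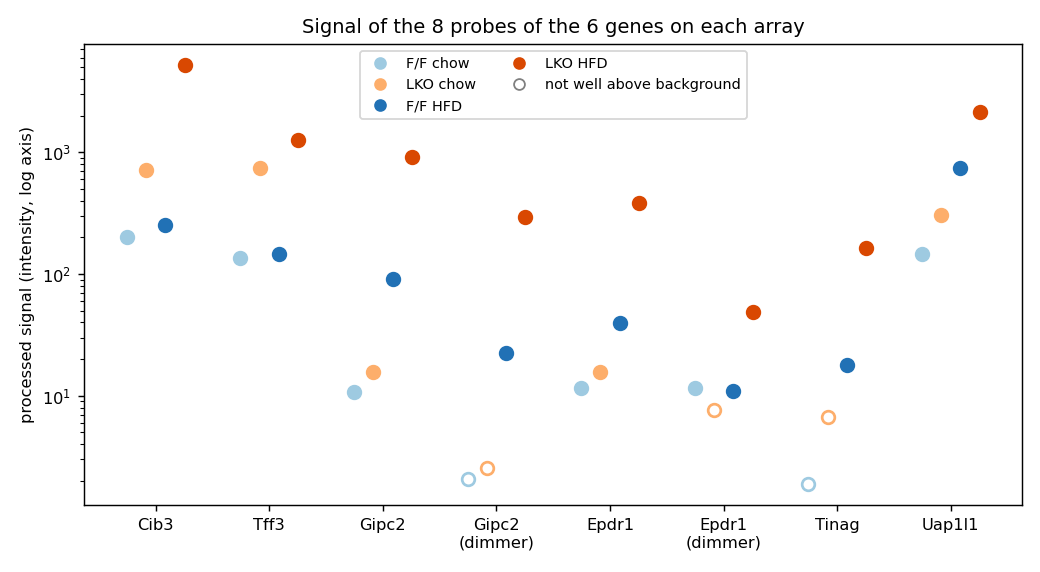
Signal of each of the 8 probes of the 6 genes on the 4 arrays, on a logarithmic axis in arbitrary intensity units, with open symbols where the probe was not well above background. Every probe was brightest on the LKO HFD array, from 48.9 for the dimmer Epdr1 probe to 5215 for Cib3.

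Cib3 and Tff3 were bright on every array and were higher in LKO on both diets. The Cib3 probe gave a signal of 199.7 in F/F on chow, 712 in LKO on chow, 254 in F/F on HFD and 5215 in LKO on HFD. Both F/F arrays were thus low and alike, the LKO chow array was higher and the LKO HFD array stood far above all others. Cib3 was 3.71-fold higher in LKO on chow (log2 difference 1.89, rank 12 of 14185 genes) and 18.3-fold higher on HFD (4.19, rank 1 of 14677). In F/F the diet difference was 0.10, whereas in LKO it was 2.40, a 5.28-fold higher level on HFD (rank 67 of 14261).

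Tff3 gave a signal of 135.7 in F/F on chow, 737 in LKO on chow, 146 in F/F on HFD and 1250 in LKO on HFD. Its levels thus fell into a low pair of F/F arrays and a high pair of LKO arrays, with diet adding little to either. It was 5.64-fold higher in LKO on chow (log2 difference 2.50, rank 4) and 7.64-fold higher on HFD (2.93, rank 5). The diet difference was -0.14 in F/F and 0.29 in LKO, so that Tff3 was the only one of the 6 genes below 2-fold for diet in LKO.

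Gipc2, Epdr1 and Tinag were dim on chow and had their large genotype differences on HFD. The brighter Gipc2 probe gave a signal of 10.7 in F/F on chow, 15.5 in LKO on chow, 91.1 in F/F on HFD and 909 in LKO on HFD. Both HFD arrays were thus above both chow arrays, and LKO on HFD was 8.88-fold above F/F on HFD (log2 difference 3.15, rank 2). On chow the same probe was 1.51-fold higher in LKO (0.59, rank 347). Among the 5 genes measured on all 4 arrays, which leaves out Tinag with its bounds, Gipc2 showed the largest diet differences, 7.17-fold in F/F (2.84, rank 24 of 14282) and 42.2-fold in LKO (5.40, rank 2). A dimmer Gipc2 probe gave 2.07 and 2.54 on the chow arrays, neither well above background, and on the HFD arrays it read 22.5 for F/F and 296 for LKO. By that probe Gipc2 was 11.7-fold higher in LKO on HFD, had no value for genotype on chow, and for diet was at least 2.43-fold higher with HFD in F/F and at least 26.4-fold higher in LKO. A bound was set against the dimmest probe that still counted as well above background on the dim array, at 7.80 to 8.35 over the 4 arrays.

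The brighter Epdr1 probe gave a signal of 11.5 in F/F on chow, 15.7 in LKO on chow, 39.9 in F/F on HFD and 386 in LKO on HFD. The chow arrays were alike and near the floor, F/F on HFD was above them and LKO on HFD was far above all. The LKO to F/F ratio was 8.62-fold on HFD (log2 difference 3.11, rank 3) and 1.41-fold on chow (0.50, rank 504), and the HFD to chow ratio was 2.92-fold in F/F (1.54, rank 195) and 17.8-fold in LKO (4.15, rank 5). A dimmer Epdr1 probe gave 11.5, 7.70 (not well above background), 10.9 and 48.9 on the same arrays in the same order. It was 3.99-fold higher in LKO on HFD (1.995), at least 1.36-fold lower in LKO on chow, little different between diets in F/F (-0.32) and at least 4.36-fold higher on HFD in LKO. The probes thus placed LKO on HFD highest but disagreed by 1.11 on the HFD genotype difference, where 2 probes of a gene differed with an SD of 0.316 over 5127 genes. For Gipc2 the gap was 0.40.

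The Tinag probe was not well above background on either chow array (1.87 in F/F and 6.75 in LKO), and on HFD it read 17.7 in F/F and 164 in LKO. The genotype ratio on HFD was 8.26-fold (log2 difference 3.05, rank 4) and there is no value for chow. Against chow, the HFD signal was at least 1.91-fold higher in F/F and at least 14.7-fold higher in LKO, so that LKO on HFD stood highest here too.

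Uap1l1 was higher on HFD in both genotypes and higher in LKO on both diets. Its signal was 147 in F/F on chow, 307 in LKO on chow, 747 in F/F on HFD and 2152 in LKO on HFD, which puts the arrays in a ladder with no like pair. The genotype ratio was 2.17-fold on chow (log2 difference 1.12, rank 56) and 2.57-fold on HFD (1.36, rank 126). With normexp background correction the chow ratio was 1.88-fold, below the 2-fold line. The diet ratio was 4.28-fold in F/F (2.10, rank 67) and 5.06-fold in LKO (2.34, rank 82), larger than the genotype ratio on either diet.

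**Figure D2:**
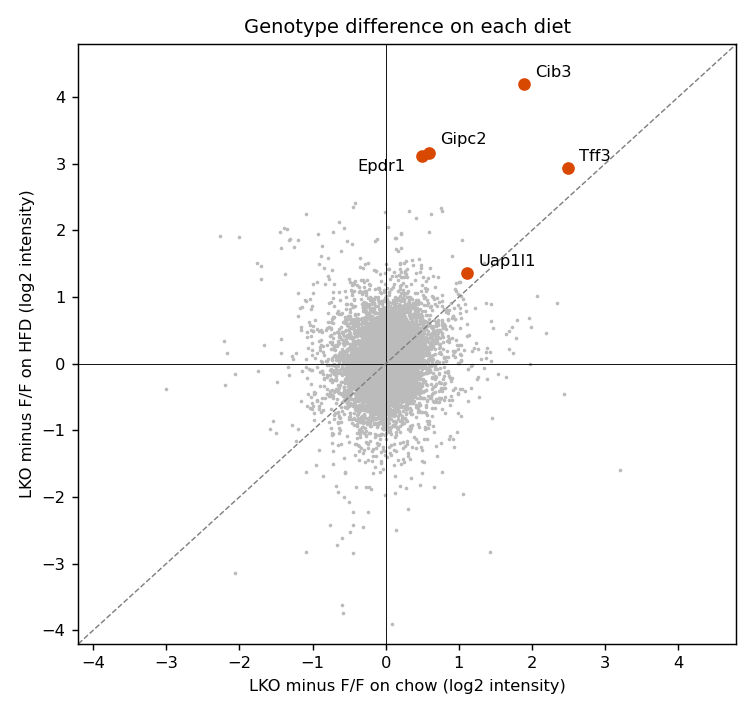
LKO minus F/F log2 difference of each gene on chow (horizontal axis) against HFD (vertical axis), for the brightest probe, over the 13981 genes measured on all 4 arrays (grey points), with a dashed 1:1 line. Tff3 and Uap1l1 lie near the line and Cib3, Gipc2 and Epdr1 lie far above it, and Tinag is not drawn because it has no chow value.

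Across the 6 genes, all were at least 2-fold higher in LKO on HFD, which the choice of genes fixed, against 2.36% of all genes. On chow, 3 of the 5 with a value (Cib3, Tff3 and Uap1l1) passed 2-fold, against 1.11% of all genes, and from this too nothing is read, since the choice used that contrast. HFD against chow in F/F put 3 genes at least 2-fold higher (Gipc2, Epdr1 and Uap1l1) against 5.21% of all genes, and 0 lower against 2.94%. With normexp 1 gene, Uap1l1, stayed past 2-fold there, Gipc2 being 1.77-fold and Epdr1 1.21-fold higher, against 1.41% of all genes. In LKO the diet put 5 genes at least 2-fold higher, all but Tff3, against 8.12% of all genes, and 0 lower against 4.07%. The comparisons share arrays, and the F/F HFD and LKO HFD arrays on which the genes were chosen also enter the diet comparisons, so these counts are not independent of the choice. The median of all genes lay between -0.07 and 0.00 in the 4 comparisons. Under the scaling of the authors' table it lay at 0.11 for diet in F/F and 0.07 for diet in LKO, and the split of all genes past 2-fold for diet went from 800 higher and 452 lower to 1073 and 337 in F/F, and from 1238 and 621 to 1549 and 444 in LKO.

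The genotype difference on HFD minus that on chow restates the same values as 1 number per gene. It was 2.61 for Epdr1, 2.56 for Gipc2 and 2.30 for Cib3, at ranks 24, 25 and 32 of the 13981 genes measured on all 4 arrays. For Tff3 it was 0.44 and for Uap1l1 it was 0.24. The technical spread, taken from replicate spots of 300 probes on the same array, was an SD of 0.0931 for the difference of 2 spots. For signals under 30 it was 0.413, from 16 pairs of a probe and an array. Gipc2, Epdr1 and Tinag lay in that range on chow. In F/F on HFD, Tinag (17.7) and the dimmer probes of Gipc2 (22.5) and Epdr1 (10.9) lay there too. The technical spread leaves out differences between mice, which cannot be measured here.

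**Figure D3:**
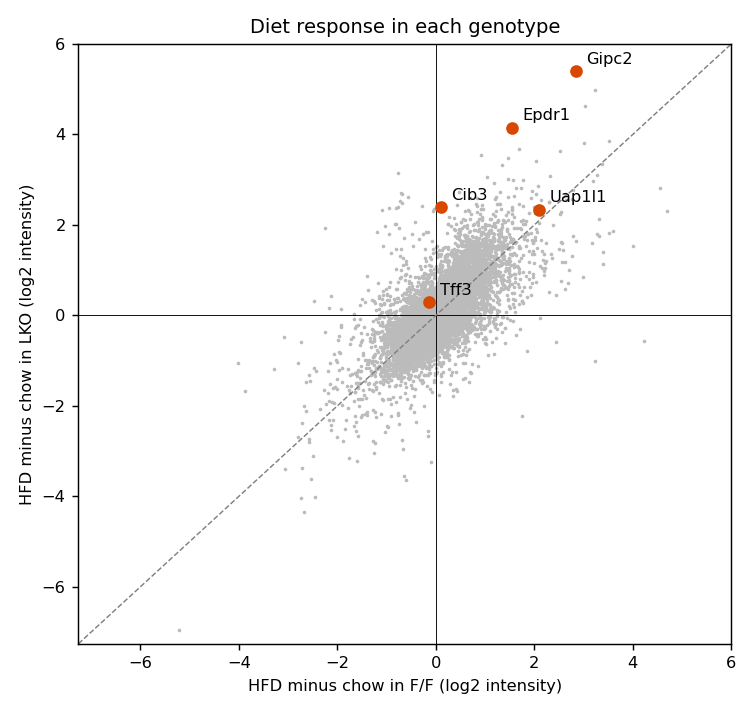
HFD minus chow log2 difference of each gene in F/F (horizontal axis) against LKO (vertical axis), for the brightest probe. Grey points are the 13981 genes measured on all 4 arrays, the dashed line is 1:1, and Tinag is not drawn because it has only bounds. Uap1l1 lies near the 1:1 line (2.10 and 2.34), Cib3 lies far above it (0.10 in F/F and 2.40 in LKO), and Tff3 is near 0 in both.

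The family members Cib1, Cib2, Tff2, Gipc1, Tinagl1 and Uap1, which were measured on all 4 arrays, differed by -0.32 to 0.41 between genotypes on HFD. Of the CIB family, Cib1 differed by 0.00 and Cib2 by -0.32 on HFD, against 4.19 for Cib3, which was chosen by this difference. Cib4 was not well above background on any array. Among trefoil factors, Tff2, a peptide of gastric mucus, gave signals of 43.0 in F/F and 20.4 in LKO on chow and of 49.1 in F/F and 73.4 in LKO with HFD, so that it was lower in LKO on chow (-1.02) and 0.41 higher on HFD, and Tff1 passed background only in LKO on HFD. Gipc1 differed by -0.01 on HFD and 0.13 on chow, Gipc3 was not well above background on any array, and the motor protein myosin VI (Myo6), a partner of GIPC proteins, differed by 0.04 on HFD and by -0.05 on chow. Tinagl1, the other member of the TINAG family, differed by 0.05 on HFD and 0.01 on chow.

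**Figure D4:**
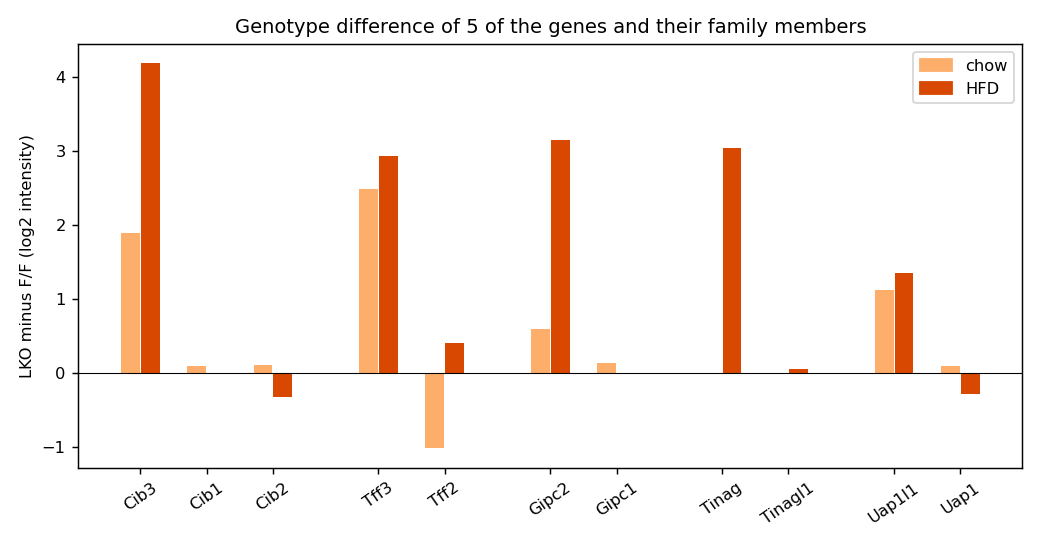
LKO minus F/F log2 difference on HFD and on chow for 5 of the 6 genes (Epdr1 has no relative in the lists) and their measured family members, each bar being the brightest probe on 1 pair of arrays and starting at 0. The 5 genes were chosen by this difference and stand above relatives such as Cib1 (0.00 on HFD), Gipc1 (-0.01) and Tinagl1 (0.05). Nothing is read from that gap, and Tinag has no chow bar.

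Uap1l1 passed 2-fold for genotype by its choice, and no other gene of the hexosamine pathway did so on either diet. All 12 genes of the list were measured. On HFD 7 were higher and 5 lower in LKO with a median of 0.10, against 45.9% higher and a median of -0.03 over all genes. On chow 8 were higher and 4 lower with a median of 0.21, against 50.7% higher and a median of 0.00 over all genes. Without Uap1l1, which was chosen by its genotype difference, the medians were 0.08 on HFD and 0.14 on chow. Uap1, which makes UDP-N-acetylglucosamine, differed by -0.29 on HFD and 0.09 on chow. The salvage kinase Nagk (0.57 on HFD, 0.34 on chow) and the deacetylase Amdhd2 (0.40 and 0.44) were higher in LKO on both diets, and the mutase Pgm3 was lower on HFD (-0.40) and higher on chow (0.55). Pgm3 and the deaminase Gnpda1 joined Uap1l1 above 2-fold for diet in F/F (1.25 and 1.03).

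Of the basement membrane genes, 22 had a value on HFD, 16 higher and 6 lower in LKO with a median of 0.16. Over all genes with a value, 45.9% were higher and the median was -0.03. The 16 include Col4a6 and also Tinag, which was chosen by this difference and was the only one at least 2-fold higher. Col4a6 passed background only in LKO on HFD, so that its bound (0.12) could only count as higher. Without Tinag the median was 0.13. The laminin chain Lamb3 was lower by 2.71 (log2 difference -2.71). Of the TMC channels, known partners of CIB proteins in hair cells, 6 had a value on HFD, Tmc3 and Tmc5 only as bounds. All 6 lay above 0 (median 0.19), against 45.9% of all genes. Tmc3 and Tmc5 passed background only in LKO on HFD, so that their bounds could lie nowhere else. None of the 6 passed 2-fold as measured or as a bound.

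Genes of fetal liver and liver tumours were mostly higher in LKO on HFD, 10 of the 11 with a value, with a median of 0.47. Over all genes, 45.9% were higher and the median was -0.03. Of the 10 list genes, Dlk1 passed background only in LKO on HFD, and its bound (0.32) could only count as higher. The surface protein Ly6d read 242 (F/F) and 269 (LKO) on chow and 2706 (F/F) and 11757 (LKO) on HFD, a log2 difference of 1.95 on HFD. The trypsin inhibitor Spink1 read 25.6 and 22.6 on chow and 97.9 and 401 on HFD in the same order (1.87). Both followed the order of Gipc2 and Epdr1, with HFD above chow and LKO on HFD highest. On chow 7 of this list were higher and 4 lower (median 0.14), against 50.7% of all genes higher and a median of 0.00. Of the 13 fatty liver genes, on HFD 10 were lower and 3 higher in LKO (median -0.41), against 45.9% of all genes higher. On chow 10 of 13 were higher (median 0.52), against 50.7% of all genes. Cidea, a lipid droplet protein, differed by 3.20 on chow and by -1.60 on HFD.

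Genes with the most similar pattern were sought for the 5 genes measured on all 4 arrays, by the root mean square difference of log2 profiles over the 4 arrays, each centred on its own mean. For Cib3 the nearest were Tff3 (0.77), Lysmd2 (0.91) and Epdr1 (1.01), and for Tff3 they were Fabp5 (0.65), Fmr1nb (0.67) and Tuba8 (0.71). Gipc2 was nearest to Trem2 (0.36), a macrophage receptor, then to Ly6d (0.45) and Epdr1 (0.64). Epdr1 was nearest to Rragd (0.39), Elovl7 (0.45) and Spink1 (0.50), and Uap1l1 to 5730416F02Rik (0.11), Sema3b (0.19) and Cx3cr1 (0.21). The nearest neighbours of Uap1l1, Gipc2 and Epdr1 were thus closer than those of Cib3 and Tff3. With 4 points a small distance says little, and nothing is said of shared function.

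Markers of other cell types also differed between the arrays on which the 6 genes were high. The 10 monocyte and macrophage markers were all higher in LKO on HFD (median 0.76), against 45.9% of all genes. Trem2 was higher by 2.24 and Gpnmb by 2.45. The summed level of these markers is in multiples of the 75th percentile of an array. It was 85.1 in F/F on chow, 89.0 in LKO on chow, 126 in F/F on HFD and 191 in LKO on HFD. All 12 exocrine pancreas markers were higher in LKO on HFD (median 1.80, 10 of them at least 2-fold) and lower in LKO on chow (median -0.90), with summed levels of 61.9, 40.2, 34.4 and 72.9 in the same order. Of all genes, 45.9% were higher in LKO on HFD, 2.36% at least 2-fold, and 50.7% were higher on chow. For Tff3, the goblet cell markers Muc2, Agr2 and Clca1 were not well above background on any array. The 4 of 7 with a value had a median of 0.74 on HFD, and the summed levels ran from 0.419 to 1.04. The 4 were Spdef (0.18), Spink4 (0.37), Zg16 (2.04) and Fcgbp. Fcgbp gave only a bound (1.11), since it passed background only in LKO on HFD. On chow Spdef was higher in LKO (0.73), and Spink4 (-1.43) and Zg16 (-1.38) were lower. Spink4 and Zg16 thus had the signs of all 12 exocrine pancreas markers on both diets. Cholangiocyte markers, which mark the bile ducts, had a median of 0.49 on HFD and -0.49 on chow (summed levels 1.08 to 1.85). For Tinag, the kidney tubule markers Cubn, Slc5a2 and Umod were not well above background on any array and the 4 with a value had a median of -0.42 on HFD (summed levels 0.277 to 0.507). On HFD the median was 0.33 for stellate cell markers, 0.56 for lymphocyte, 0.45 for adipocyte, 0.15 for endothelium, -0.16 for hepatocyte and -0.95 for red cell markers. On HFD, Epcam (cholangiocyte), Lrp2 (kidney tubule) and Cd8a (lymphocyte) also gave only bounds, passing background there in LKO alone. The part of these cell types in the signals of the 6 genes was not tested. In whole liver a change in the number of cells of a type and a change in RNA per cell cannot be told apart.

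Beyond the 6 genes, the 10 largest genotype differences on HFD held Tenm4 (2.63), Pls1 (2.52), Gpnmb (2.45), the chemokine Cxcl5 (2.43) and the pancreatic amylase Amy2b (2.41). On chow Pls1 was also higher in LKO, by at least 1.64 (log2, a bound), since its probe was not well above background in F/F. It is therefore not among the 9 genes that were measured on all 4 arrays and at least 2-fold higher in LKO on both diets, which comprised Tff3, Cib3 and Uap1l1 with Fabp5, Asns, 5730416F02Rik, Tnni2, Sprr1a and Ggta1. Among the 9, Tff3 had the largest of the smaller differences (2.50), before Cib3 (1.89) and Fabp5, a fatty acid binding protein (1.34).

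Background correction changed the dim genes most. With normexp, which adds an offset to every signal, the HFD genotype difference was 3.93 for Cib3, 2.49 for Tff3 and 1.30 for Uap1l1, but 2.59 for Gipc2 and 1.91 for Epdr1, and the Tinag ratio was 2.84-fold in place of 8.26-fold.

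**Figure D5:**
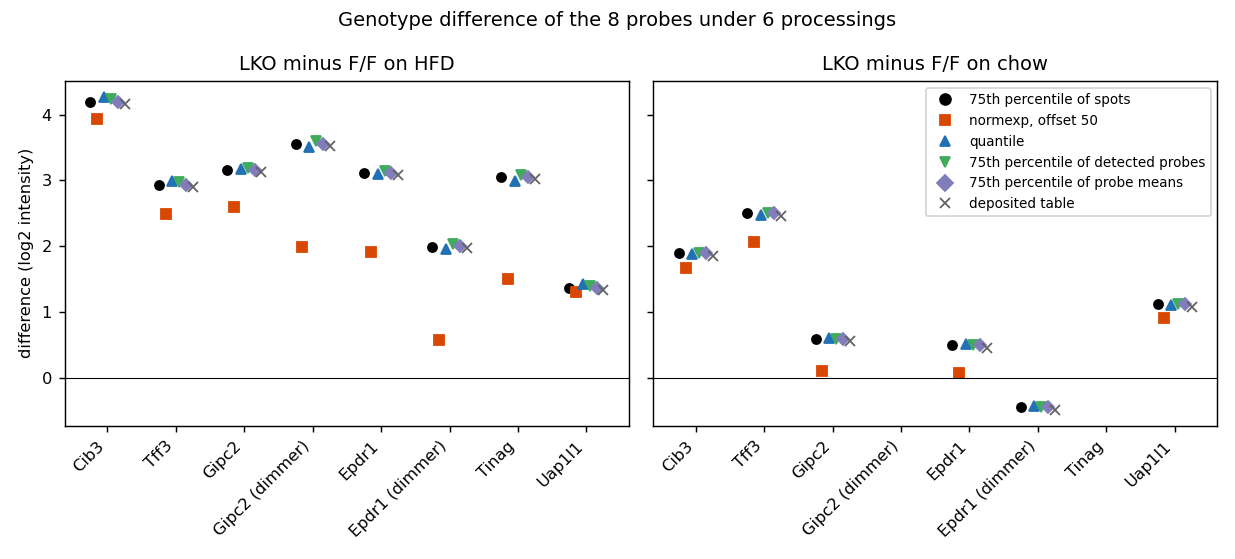
LKO minus F/F log2 difference on HFD (left) and on chow (right) for the 8 probes under 6 ways of processing, each symbol being a setting, with no chow point where a probe had no value. On HFD Cib3 stays between 3.93 and 4.27 and Uap1l1 between 1.30 and 1.42, whereas the dimmer Epdr1 probe reaches down to 0.57.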

How the data were processed

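Liver RNA of 4 conditions was measured on Agilent one-colour arrays, 1 array each. The authors deposited spot intensity from Agilent Feature Extraction 12.0.3.1, after its background subtraction, with flags for signals well above background, and a table of intensity values that equals the processed signal times 1 factor per array (chow: 2.60 in F/F, 2.63 in LKO; HFD: 2.41 and 2.10). The deposited processed signals were divided by the 75th percentile over the non-control spots of their array and put on a log2 scale in Python 3.11.15 (pandas 2.3.3, numpy 2.4.6). Outlier spots were dropped and spots of a probe averaged. Of 56605 probes, 33767 were named through RefSeq accessions (GRCm38.p6), and the brightest probe stood for a gene. A probe below background on 1 array gives a bound only if its detected value is high enough. That value must exceed both its dim value and the dimmest detected probe of the dim array. Otherwise, and when below background on both arrays, a probe has no value. A bound therefore always points towards the array where the probe was detected.

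The members and lists were chosen with earlier results of these data known. Named genes are the 6 genes, Mboat7, genes of the lists, the 3 nearest profiles and the 10 largest HFD differences. Outside this rule, Asns, Tnni2, Sprr1a and Ggta1, the rest of the genes at least 2-fold higher on both diets, were named after their values were seen. Alternatives were normexp (offset 50, limma 3.58.1, R 4.3.3), quantile normalization, percentiles over other probes, the deposited table, other filters, the mean of all probes and thresholds of 1.5-fold and 4-fold. Normexp started from the median spot and local background signals and not from the processed signals. The number of arrays limits the precision. Steps were tested on simulated data, and figures drawn with matplotlib 3.10.9.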

Additional observations from a re-analysis of the deposited data

Results flagged for a closer look

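Some values pointed in opposite directions under the same contrast, and none of these differences between groups was tested, since each condition has 1 array. The diet difference of Tff3 was 0.29 in LKO and -0.14 in F/F, both small. The dimmer Epdr1 probe had a diet difference of at least 2.12 in LKO and of -0.32 in F/F, and a genotype difference of 1.995 on HFD against a bound of -0.45 on chow.

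The median genotype difference of several lists also changed sign between HFD and chow. It was 1.80 and -0.90 for exocrine pancreas markers, 0.74 and -1.38 for goblet cell markers, 0.49 and -0.49 for cholangiocyte markers, 0.56 and -0.11 for lymphocyte markers, 0.45 and -0.30 for adipocyte markers, and -0.41 and 0.52 for fatty liver genes. Goblet cell medians rest on 4 genes on HFD and 3 on chow, and cholangiocyte medians on 7 and 6. Lymphocyte medians rest on 6 and 5 genes, and adipocyte medians on 4 and 5. The medians of all these lists kept their signs under the 6 alternatives run for lists, but several came closer to 0. On HFD and on chow, the values nearest to 0 were 1.31 and -0.60 for exocrine pancreas, 0.17 and -0.39 for goblet cell, 0.07 and -0.16 for cholangiocyte, 0.09 and -0.08 for lymphocyte, 0.14 and -0.08 for adipocyte markers, and -0.35 and 0.48 for fatty liver genes.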

How the results depend on the processing

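No paired analysis was possible because each condition has 1 array and no test was made. No difference of the 8 probes changed sign under the alternatives run for them. Of the 6 counts of genes past the threshold, 2 moved by over 1.5 times. With normexp 1 gene (Uap1l1) rather than 3 was at least 2-fold higher on HFD in F/F, and at a 4-fold threshold 1 gene (Tff3) rather than 3 was higher in LKO on chow. Of 179 probe values under alternatives, 45 moved by more than the spread between replicate spots and 134 did not. Normexp moved the dim probes most: on HFD the genotype difference was 1.99 for the dimmer Gipc2 probe and 0.57 for the dimmer Epdr1 probe, and the diet difference in F/F was 0.82 for Gipc2 and 0.28 for Epdr1. The genotype difference on HFD minus that on chow ranged from 2.25 to 2.39 for Cib3, 2.49 to 2.59 for Gipc2 and 1.84 to 2.64 for Epdr1. Counts of all genes past 2-fold, in the order LKO on HFD, LKO on chow, HFD higher and lower in F/F and HFD higher and lower in LKO, were 366, 167, 800, 452, 1238 and 621, against 93, 19, 211, 145, 428 and 238 with normexp and 996, 672, 1366, 1351, 1912 and 1508 with no filter and no floor, and LKO on chow gave 83 with only probes well above background on both arrays. Alternatives for the lists and for the difference between diets were chosen after seeing the data. The cause of these shifts was not tested. Low signal limits Gipc2, Epdr1 and Tinag on chow, and Tinag and the dimmer Gipc2 and Epdr1 probes in F/F on HFD.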
